A study of Homo sapiens with 6 samples.

Results

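Mitochondrial ribosomal protein genes were examined in podocytes of the AB 8/13 line, a human kidney line whose immortalizing gene is active only at a lower temperature. Genes were chosen by symbol, as MRPL or MRPS with a number and at most one of the letters A, B or C, which gave 76 of the 20745 genes in the deposited table. Of these, 47 carry an MRPL symbol (large subunit) and 29 an MRPS symbol (small subunit), and pseudogenes lie outside the pattern. RNA had been sequenced from 3 vehicle cultures and from 3 cultures given 1 µM levamisole for 24 h, all of the same line and differentiated at the growth-restrictive temperature, with no other agent or allele named for either group. The treatment protocol in the sample labels places both groups in serum-free medium, whereas the methods describe complete medium for the vehicle cultures, and this was left unresolved.

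The table holds 1 level per gene, the base mean, which is the authors' mean normalized count over the libraries of their fit. It gives no value per culture, so no spread, replicate check or depth per library could be stated, and the levels below are descriptions without a test. Vehicle and levamisole are set against each other in the table only through columns of the authors' own comparison, which were not used, so the response of these genes to levamisole is not analysed here. Libraries followed a modified form of CEL-seq, a method that primes reverse transcription from the poly(A) tail, so that reads come from the 3′ ends of transcripts. Levels are given as the base mean and, for most genes of the ribosome, also per kb of the canonical transcript of GENCODE 44. Reads from 3′ ends need not grow in number with transcript length, so a place per kb can reflect the length alone. Neither scale was tested against another measure. Across 14455 protein-coding genes the rank correlation with transcript length was 0.077 for the base mean and -0.22 per kb, a description over genes that share the length as divisor.

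Mitochondria keep a ribosome of their own, which translates the few mRNAs of the mitochondrial genome, all of them for subunits of the respiratory chain and the ATP synthase. Its RNA parts are encoded in the mitochondrion, whereas each of its proteins is encoded in the nucleus, translated in the cytosol and imported. Some of these proteins have counterparts in all ribosomes, some only in bacteria, and the rest are found only in mitochondria. Podocytes need ATP to maintain the actin-rich foot processes, and inherited defects of mitochondrial proteins are among the known causes of podocyte disease.

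The cell identity was checked with markers of the podocyte and of other kidney and blood cells. Among the podocyte markers reported here, the slit diaphragm gene NPHS1 had no row. CD2AP, an adaptor of the slit diaphragm, had a base mean of 929. The actin-associated SYNPO was at 22.8, the surface sialomucin PODXL at 15.3, the transcription factor WT1 at 6.21 and PTPRO at 0.333. Apart from CD2AP, the podocyte markers named were thus low in the pooled libraries. The markers of endothelium (VWF and CDH5), proximal tubule (CUBN and SLC34A1) and leukocytes (CD14 and PTPRC) that had a row were all at 2.40 or less. Of the mesangial markers, PDGFRB was at 4.14 and ACTA2, which many cultured cells express, at 1021.

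The 76 genes had a median base mean of 155, with quartiles at 92.7 and 303. The median over all 20745 genes, of which 7409 were under 5, was 21.8, and that over protein-coding genes was 66.2. Of the 76 genes, 72 lay above the median of all genes, as did 9879 of the 14455 protein-coding genes. Their median place was the 77.7th percentile of the table and the 68.5th of protein-coding genes, and where only base means of 50 or more were ranked it was the 48.4th, for the 66 that reached that level. Per kb, the median was 99.4 against 8.45 over all genes with a transcript length, at the 86.7th percentile. A base mean of at least 100 was found for 55 of the genes and of at least 1000 for 3, and 1 gene, MRPL46, had a base mean under 5. Among the 14455 protein-coding genes these counts were 5973, 750 and 2617. Summed, the 76 genes held 0.330% of all normalized counts in the table. The 3 highest genes held 24.7% of that sum and the 10 highest 47.0%.

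**Figure D1:**
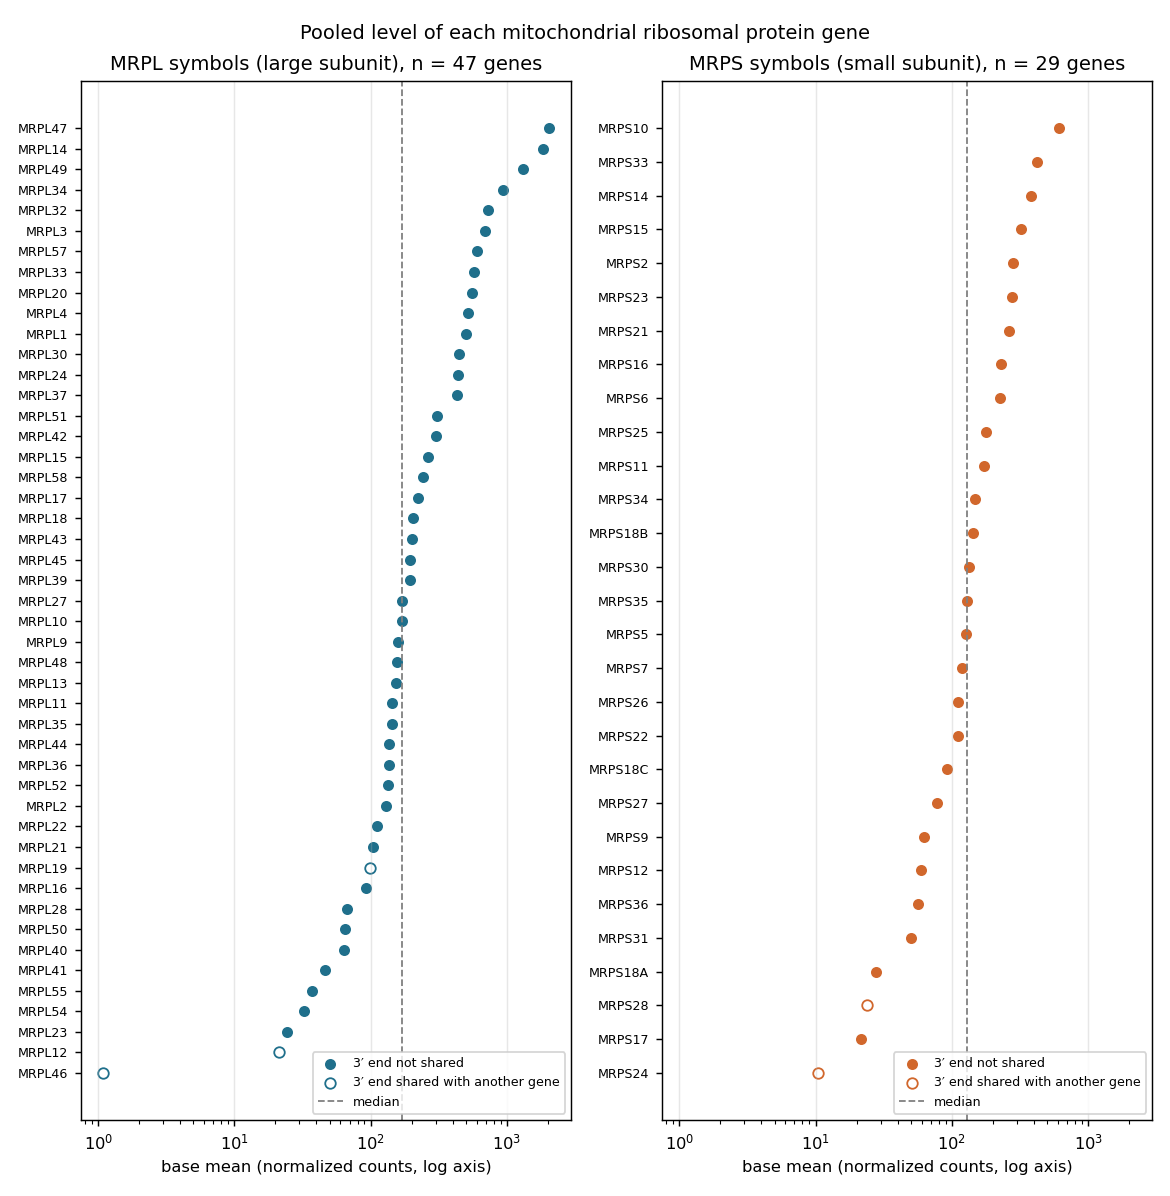
Base mean of each gene (log axis, normalized counts) for the 47 MRPL genes (left) and the 29 MRPS genes (right), ordered by level, with the median as a dashed line. Open points are the 5 genes whose 3′ end is shared with another gene on the same strand; 4 of them are among the 5 lowest genes, and MRPL47 is the highest at 2035.

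The highest levels were those of large subunit genes. MRPL47 (ENSG00000136522, GRCh38 chromosome 3, 179588285 to 179604649, minus strand) had a base mean of 2035 and 1503 per kb. It encodes the counterpart of bacterial L29, a protein at the exit of the peptide tunnel. MRPL14 (ENSG00000180992, chromosome 6, 44113451 to 44127452), whose protein lies at the interface of the subunits, had a base mean of 1826 and was first per kb, at 1908. MRPL49 (ENSG00000149792, chromosome 11, 65122183 to 65127371), a protein found only in mitochondria, had 1309 and 646 per kb. The small proteins MRPL34, MRPL32 and MRPL33, counterparts of bacterial L34, L32 and L33, had base means of 927, 729 and 573. MRPL32 is known as a substrate of the m-AAA protease of the inner membrane, which matures it before it enters the ribosome. MRPL3, which reaches towards the peptidyl transferase centre, was at 685, and MRPL57, found only in mitochondria, at 607. Of the 10 genes with the highest base mean, 9 were MRPL genes, and of the 10 highest per kb all 10 were, with 7 genes in both sets.

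The small subunit was led by MRPS10 (ENSG00000048544, chromosome 6, 42206807 to 42217861), the counterpart of bacterial S10 in the head of the subunit, with a base mean of 613 and 292 per kb. MRPS33 followed with 419, MRPS14 with 383, MRPS15 with 320.3, MRPS2 with 283, MRPS23 with 278, MRPS21 with 262 and MRPS16 with 230.1. MRPS33 and MRPS23 are found only in mitochondria, and the other 5 are counterparts of bacterial proteins. Division by length changed this order. MRPS15, with a short transcript, was at 336 per kb, whereas MRPS33 was at 99.4 and MRPS23, whose canonical transcript is 5609 bases long, at 49.6.

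The medians of the subunits were close beside the range within each. The 47 MRPL genes had a median base mean of 170.0 and the 29 MRPS genes one of 129, a ratio of 1.32, and the ratio per kb was 1.79 (126 against 70.3). The base means of MRPL genes ran from 1.09 to 2035, and those of MRPS genes from 10.4 to 613. Among the 20 highest genes 16 were MRPL and 4 MRPS, and among the 20 lowest there were 10 of each. Symbols do not always give the subunit. MRPS30, with a base mean of 133, and MRPS18A, with 27.8, encode proteins of the large subunit, and MRPS36, with 56.1, encodes a component of the 2-oxoglutarate dehydrogenase complex. With the genes placed by the position of the protein, 49 large subunit genes had a median of 168 and 26 small subunit genes one of 136, a ratio of 1.23.

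The MRPS18 family shows the difference between symbol and place. Bacteria have a single S18 protein, and human mitochondria have 3 relatives of it. MRPS18C, which takes the place of bacterial S18, had a base mean of 92.8 and 59.8 per kb. MRPS18B, at another site of the small subunit, had 144 and 103 per kb. MRPS18A, in the large subunit, had 27.8 and 23.9 per kb. MRPS18B was thus highest and MRPS18A lowest on both scales.

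Grouped by descent, 27 genes with counterparts in all ribosomes had a median base mean of 173, 19 with bacterial counterparts one of 159.5, and 29 found only in mitochondria one of 144. Per kb the medians were 106, 130.3 and 92.0, so the bacterial group was first on that scale. The ranges overlapped almost throughout, from 10.4 to 2035, from 21.3 to 927 and from 1.09 to 1309.

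The following genes of the large subunit are given by role, a choice made after their values were seen. In the stalk that receives translation factors, MRPL10 and MRPL11, which form its base, had base means of 168 and 144 (96.2 and 89.96 per kb). MRPL12, the stalk protein that is present in several copies, had 21.3 (21.1 per kb), and its 3′ end is partly shared with another gene, as described later. Around the exit tunnel, where MRPL47 also lies, MRPL4 was at 514 (422 per kb) and MRPL24 at 434 (491 per kb). In the same region, MRPL45, which holds the ribosome to the inner membrane, was at 196 (126 per kb). MRPL22, also there, was at 112 (35.2 per kb) and MRPL23 at 24.4 (36.3 per kb). Near the catalytic centre, MRPL27 was at 170.0 (248 per kb), MRPL2 at 129 (106 per kb) and MRPL16 at 92.6 (85.5 per kb). MRPL58, a peptidyl-tRNA hydrolase that became part of the ribosome and releases stalled chains, had a base mean of 241 (269.8 per kb).

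The lowest MRPL genes were MRPL46 at 1.09, MRPL12 at 21.3, MRPL23 at 24.4, MRPL54 at 32.4, MRPL55 at 36.8, MRPL41 at 46.4, MRPL40 at 63.6 and MRPL50 at 64.6. The lowest MRPS genes were MRPS24 at 10.4, MRPS17 at 21.7, MRPS28 at 23.9, MRPS18A at 27.8, MRPS31 at 50.3, MRPS36 at 56.1, MRPS12 at 59.1 and MRPS9 at 62.4. MRPS12, the counterpart of bacterial S12 at the decoding site, and MRPS24, the counterpart of S3 at the mRNA entry, are thus both in this group. Per kb, MRPL46 (1.10), MRPS17 (12.1) and MRPS24 (15.6) were still among the 5 lowest of the 76, whereas MRPL54 (53.3), MRPL55 (49.8), MRPL41 (79.7) and MRPL40 (85.4) moved up.

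For the low genes the annotation at the 3′ end was examined, since reads gather there and HTSeq-count with default settings leaves a read uncounted where exons of several genes on its strand overlap. In 5 of the 76 genes (6.58%), part of the last 500 exonic bases was also exonic in a second gene of that strand. They were MRPS24 and MRPL19 (100% covered), MRPL46 (95.4%), MRPS28 (71.4%) and MRPL12 (39.2%). Their base means were 10.4, 98.1, 1.09, 23.9 and 21.3, with a median of 21.3, against 168 for the 71 genes with no such overlap, which ran from 21.7 to 2035. Of the 5 genes with the lowest base mean, 4 had a covered end, and per kb all 5 covered genes were among the lowest 10.

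The overlapping gene was a readthrough gene in 4 of the 5 cases, that is, a gene model whose transcripts join exons of neighbouring genes. For MRPS24 (ENSG00000062582, chromosome 7, 43866558 to 43869893) it was URGCP-MRPS24. For MRPL46 (ENSG00000259494, chromosome 15, 88459477 to 88467390) it was ENSG00000173867. For MRPL19 it was a long non-coding RNA, ENSG00000270696, with a base mean of 22.9. This was the only 1 of the 5 overlapping genes with a row in the table. The same overlap was seen in 3.44% of 14455 protein-coding genes, whose median base mean was 14.6, against 69.1 for the others. The part of the overlap in these levels was not tested. MRPS17, MRPL23 and MRPS18A were low with no covered end.

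**Figure D2:**
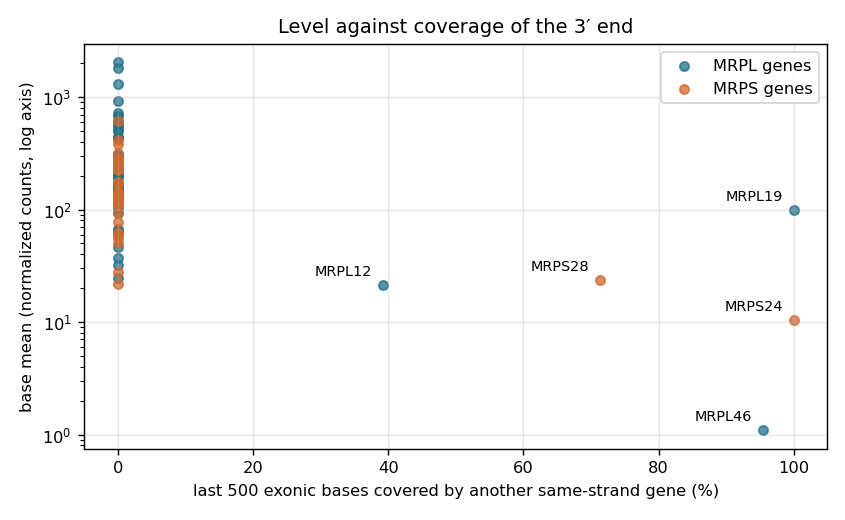
Share of the last 500 exonic bases of each gene that is also exonic in a second gene of that strand (x axis, percent) against its base mean (y axis, log axis). Points at 0 are the 71 genes without overlap, from 21.7 to 2035, and the named points are the 5 genes with overlap, from 1.09 to 98.1.

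The mitochondrial ribosome also contains 5 proteins whose genes carry other names. DAP3, a GTP-binding protein of the small subunit, had a base mean of 274, GADD45GIP1 of the large subunit 189.8, AURKAIP1 114, PTCD3, an RNA-binding pentatricopeptide repeat protein, 96.4 and CHCHD1 74.0. All 5 lay above the median of the table, and all but CHCHD1 lay between the quartiles of the MRPL and MRPS genes.

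The factors that build and serve this ribosome were lower. The 22 assembly genes had a median base mean of 53.1 (21.5 per kb), from 2.91 for the methyltransferase gene MRM1 to 491 for METTL17. The GTPase gene ERAL1, which acts on the small subunit RNA, was at 158, and MALSU1, which binds the MRPL14 protein on the maturing large subunit, at 163. The 15 translation factor genes had a median of 84.0 (40.2 per kb). TUFM, the mitochondrial elongation factor Tu, had the highest base mean at 624 (310.2 per kb), followed by SLIRP at 347, GFM1 at 338 and LRPPRC at 323, while per kb SLIRP was above the other 3, at 924. SLIRP and LRPPRC form a complex that stabilizes mitochondrial mRNAs. The lowest was PDF, the peptide deformylase, at 0.490.

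Against other groups, the 76 genes stood between the factors and the respiratory chain. The 77 cytosolic ribosomal protein genes had a median base mean of 880.2, which was 5.69 times that of the mitochondrial ones, and 8.46 times per kb. Only 4 mitochondrial ribosomal protein genes were above the cytosolic median, namely MRPL47, MRPL14, MRPL49 and MRPL34, and 14 cytosolic genes were under the mitochondrial median. The lowest cytosolic genes were RPL39 at 9.84, RPL7 at 11.8 and RPS10 at 12.4. Reads that align to several places, or to exons shared by several genes, are left out of the counts in every group. How far this lowers the cytosolic levels was not tested, so the ratios compare counts as they were made. The 72 nuclear respiratory chain genes had a median of 277 (1.79 times, and 2.78 times per kb), and 22 of the 76 genes were above it. The 13 protein-coding genes of the mitochondrial genome, some of which share an mRNA, had a median base mean of 50729 and together made up 27.1% of the normalized counts in the table. They ran from 7.97 for MT-ND6, the only one on the light strand, to 780614 for MT-CYB. How well priming from the poly(A) tail captured each of these mRNAs was not tested.

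**Figure D3:**
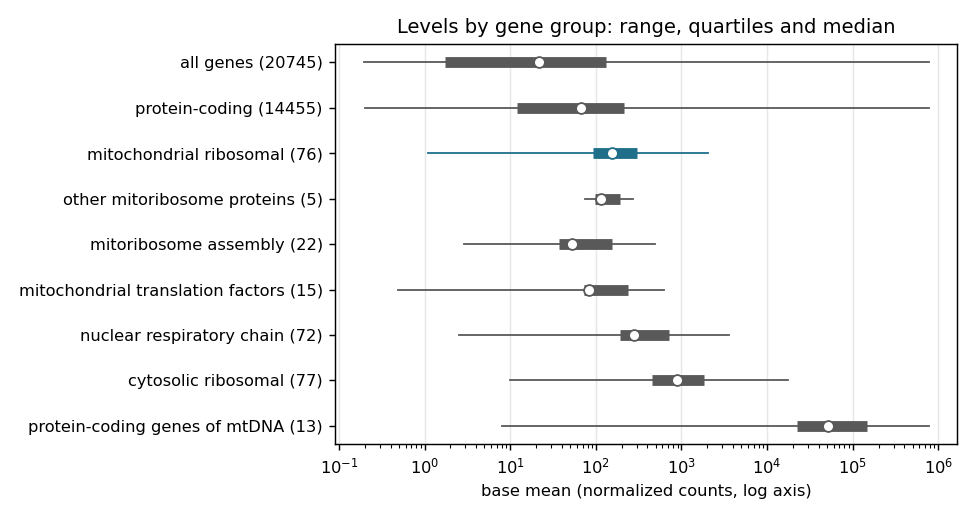
Base mean by gene group (log axis): thin lines run from the lowest to the highest gene, thick bars from the lower to the upper quartile, and open points are medians, with the number of genes in parentheses. The mitochondrial ribosomal protein genes (median 155) lie above their assembly genes (53.1) and under the respiratory chain (277) and the cytosolic ribosome (880.2).

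The genes are spread over 21 chromosomes, with 8 on chromosome 1 and 7 each on chromosomes 2, 11 and 17. They are short, with a median canonical transcript of 1242 bases, a coding sequence of 585 bases and 5 exons. Over protein-coding genes of the table the medians were 3334 bases, 1404 bases and 9 exons. The cytosolic ribosomal protein genes were shorter still, with medians of 785 bases, 456 bases and 5 exons. Nuclear respiratory chain genes had a median transcript of 830.5 bases. Among the 76 genes, the longest transcript was that of MRPL42, with 15557 bases. For MRPL42, division by length moved the place among the 76 genes from 20 to 71.

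A start shared with a neighbour was frequent. For 17 of the 76 genes (22.4%), the start of a protein-coding gene on the opposite strand lay within 1000 bases, with both genes pointing away from each other. This was so for 10.4% of protein-coding genes of the table, for 14.3% of cytosolic ribosomal protein genes and for 25% of nuclear respiratory chain genes. The distance had a median of 77 bases and ran from 6 to 990. MRPL46 and MRPS11 are neighbours of each other at 63 bases, so the 17 genes form 16 pairs.

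Some of the pairs, chosen after their values were seen, were as follows. MRPL47 and MRPL36, both at 41 bases, face NDUFB5 and NDUFS6, subunits of respiratory complex I. MRPL47 had a base mean of 2035 and NDUFB5 one of 864, while MRPL36 had 137 and NDUFS6 276. MRPL49 starts 6 bases from FAU, which encodes a cytosolic small subunit protein fused to a ubiquitin-like one, and the levels were 1309 and 307. MRPS12 (59.1) faces SARS2 (4.86), the mitochondrial seryl-tRNA synthetase, at 181 bases. MRPL18 (205) faces TCP1 (829), a subunit of the cytosolic chaperonin, at 109 bases. In the pair of MRPS11 and MRPL46 the levels were 173 and 1.09, with the covered 3′ end of MRPL46 given above. The other neighbours with a row were SKA3, MITD1, EME1, LRRC46, SLC7A7, IGHMBP2, HELQ, ZNF189 and APBA3, with base means from 2.84 for LRRC46 to 172 for MITD1.

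Of the 16 of these genes whose neighbour has a row, the neighbour had the higher base mean in 4 (MRPL18, MRPL36, MRPL54 and MRPL46) and the lower one in the others. Per kb it was also higher in 4, with MRPL30 in place of MRPL54. The 17 genes had a median base mean of 168 and the other 59 one of 153 (119.96 and 98.4 per kb).

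**Figure D4:**
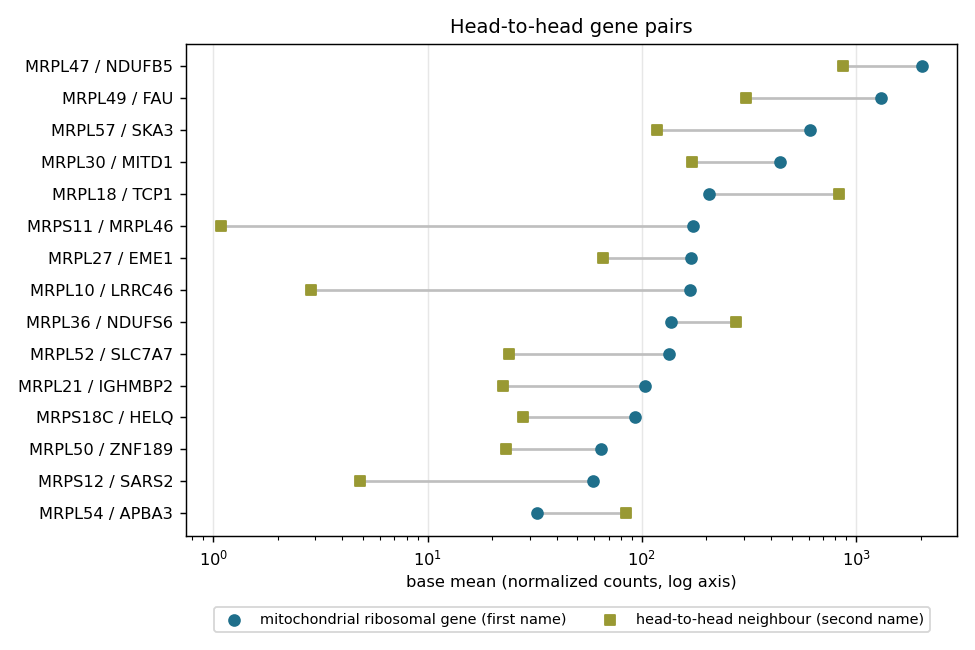
Base means (log axis) of mitochondrial ribosomal protein genes (circles, first name) and of the protein-coding gene that starts within 1000 bases on the opposite strand (squares, second name), with lines joining each pair; the pair of MRPS11 and MRPL46 is drawn as 1 row. The circle lies to the right of the square in most rows, and to the left for MRPL18, MRPL36 and MRPL54.

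Promoter sequences were taken from RefSeq on GRCh38.p14, as 250 bases before to 50 after the gene start, and 67 of the 76 genes matched by symbol. They were searched on both strands for 4 motifs: GCATGCGC, the core of the site of NRF1, a known activator of nuclear genes for mitochondria; CCGGAAG, a site of ETS factors such as GABPA; AAGATGGC, a site of YY1; and TATAAA, the TATA box. A match is a match of letters and not a bound site. The windows below belong to the 5 genes that hold an ETS and a YY1 match within 100 bases before and 30 after the start. These windows are shown because the ETS and YY1 motifs differed most in frequency from the promoters of protein-coding genes in the table. Each runs 5′ to 3′ on the strand of the gene, with the matches in capitals, and no ETS match overlaps a YY1 match. The first is chr3:179604609-179604738 (minus strand), followed by chr6:42217832-42217961 (minus), chr1:1407264-1407393 (minus), chr14:22829787-22829916 (plus) and chr6:43687762-43687891 (minus).
MRPL47: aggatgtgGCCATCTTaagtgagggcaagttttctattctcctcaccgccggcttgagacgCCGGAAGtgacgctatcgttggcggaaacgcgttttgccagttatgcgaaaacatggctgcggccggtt
MRPS10: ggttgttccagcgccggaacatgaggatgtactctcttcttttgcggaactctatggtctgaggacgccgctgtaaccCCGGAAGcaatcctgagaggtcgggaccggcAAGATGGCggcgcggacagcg
MRPL20: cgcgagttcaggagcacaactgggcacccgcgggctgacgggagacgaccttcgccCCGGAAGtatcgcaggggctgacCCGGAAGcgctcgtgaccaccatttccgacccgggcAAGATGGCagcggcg
MRPL52: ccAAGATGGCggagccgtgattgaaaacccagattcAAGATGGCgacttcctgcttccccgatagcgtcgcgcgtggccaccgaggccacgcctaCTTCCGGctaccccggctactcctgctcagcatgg
MRPS18A: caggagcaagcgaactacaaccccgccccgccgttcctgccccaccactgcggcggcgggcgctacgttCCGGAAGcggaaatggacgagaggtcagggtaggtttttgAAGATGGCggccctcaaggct

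An ETS match was found in 27 of the 67 promoters (40.3%), against 17.7% of the 11394 promoters of protein-coding genes in the table, 10.3% of all 35116 promoters of the RefSeq set and 33.9% of 62 cytosolic ribosomal protein promoters. A YY1 match was found in 19 (28.4%), against 4.92%, 2.89% and 9.68%. The NRF1 core was in 6 (8.96%), against 5.11% of protein-coding promoters, and the TATA box in 2 (2.99%), those of MRPS15 and MRPL54, against 6.39%. At least 1 of the NRF1, ETS and YY1 motifs was present in 40 of the 67 (59.7%), in 25% of protein-coding promoters and in 45.2% of the cytosolic ribosomal ones. MRPL52 was the only 1 of the 67 with all 3. The median GC content of the 67 promoters was 60.3%, against 65.0% for protein-coding genes, 58.7% for all promoters and 59% for the cytosolic ribosomal protein genes.

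The YY1 letters lay mostly after the start. In 14 of the 19 promoters every match reached past the start, as in MRPS10 and MRPL20 above, where it begins at base 10 and at base 16 of the transcript. The letters contain an ATG, and in 11 of the 19 promoters it was an annotated start codon (in 240 of 561 protein-coding promoters with a match). These genes include MRPS10, MRPS18A, MRPS24, MRPL45 and MRPL46. In MRPL47 and MRPL52 the YY1 letters lay before the start.

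Genes with an ETS match had a median base mean of 170.0 and those without one of 166 (104 and 97.3 per kb). With a YY1 match the median was 133, from 1.09 for MRPL46 to 2035 for MRPL47, and without it 186, while per kb the medians were 98.4 and 102. With any of the NRF1, ETS and YY1 motifs the median was 146 (98.9 per kb) over 40 genes, and with none of them 195 (181 per kb) over 27. MRPL14 and MRPL49, next to MRPL47 in level, held no match to any of the motifs searched.

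**Figure D5:**
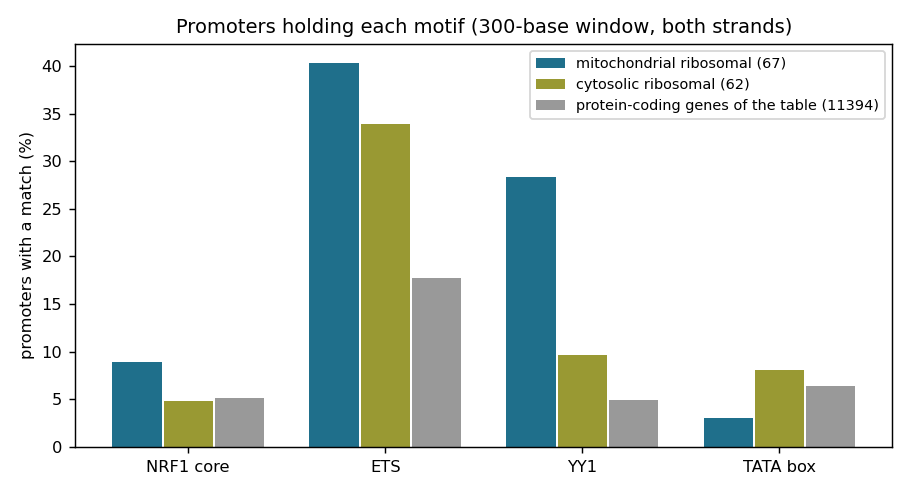
Share of promoters (percent) that hold each motif on either strand from 250 bases before to 50 after the start, for mitochondrial ribosomal (67), cytosolic ribosomal (62) and all protein-coding genes of the table with a promoter (11394). The ETS bars stand at 40.3%, 33.9% and 17.7% and the YY1 bars at 28.4%, 9.68% and 4.92%.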

How the data were processed

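RNA from 3 vehicle and 3 levamisole cultures was sequenced by the authors with an adapted CEL-seq protocol. Per the labels and methods, the authors trimmed reads with Trim Galore 0.4.5, mapped them to GRCh38 with STAR 2.7.5a, counted them per gene with HTSeq 0.11.0 on Ensembl 95 and fitted DESeq2 1.22.0. The deposited base mean is a signal, the mean of normalized counts over the authors' libraries, which may number more than these 6. Another 5 columns hold the authors' own comparison (log2 fold change, standard error, Wald statistic, p-value, adjusted p-value) and were not used. No value per culture was analysed, so depth per library is unknown and no group test was made.

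Here, genes were chosen by symbol, and the genes and lists were chosen with earlier results of these data known. Named are the 8 highest and 8 lowest genes of each subunit, the MRPS18 genes, MRPS30, MRPS36, the 5 other mitoribosome genes and members under a base mean of 5, and role groups and neighbours chosen after their values were seen. Places in the ribosome come from a hand-written table. Positions, transcript lengths, 3′ overlap (last 500 exonic bases, genes with identifiers no newer than the table's newest) and head-to-head starts (gene ends, 1000 bases) come from GENCODE 44, to which 20599 gene identifiers matched, on the authors' assembly with a later annotation. Promoters are RefSeq's. Functions were tested on simulated data. Python 3.11.15, pandas 2.3.3 and matplotlib 3.10.9 were used. Some markers are not reported here.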

Additional observations from a re-analysis of the deposited data

How the results depend on the processing

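No paired analysis was possible because the table gives 1 pooled level per gene and none per culture, and for the same reason no replicate could be left out. The planned charge of the N-terminus was not run, as no protein sequences were used here. A value was taken as moved when it changed by more than 1.5 times. Divided by transcript length in kb, the median over the 76 genes was 99.4 in place of 155, and that of the MRPS genes 70.3 in place of 129, which follows from the change of unit. Among rows with a base mean of at least 50, the median place of the 66 genes left was the 48.4th percentile in place of the 77.7th, since fewer low rows remain. With the 250 bases before the start alone, the share of promoters with the YY1 letters was 7.46% in place of 28.4%, beside 1.68% of protein-coding and 1.61% of cytosolic ribosomal promoters in that window, since most matches lie after the start. The other alternatives, namely the subunit by place, the added mitoribosome genes, protein-coding rows or rows of at least 5 as background, and starts within 500 bases, stayed within 1.5 times, as did leaving out the 5 genes with a covered end, an alternative chosen after seeing the data (median 168).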

Other observations

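Pseudogenes and antisense or divergent RNAs with MRP symbols had 7 rows in the table, from a base mean of 0.277 for MRPS31P5 to 18.8 for MRPS36P1, with MRPL20-AS1 at 5.27. GENCODE 44 names 80 pseudogenes for 35 of the 76 genes, 8 of them for MRPS21. With its default settings HTSeq-count, which the methods name, leaves out reads that align to several places, so reads shared with such copies are missing from these levels. How many they were is unknown, and the levels of the 35 genes are uncertain to that extent. Across the 76 genes, the rank correlation of base mean with transcript length was 0.16 and that of base mean per kb with length -0.32, a description over genes that share the length as divisor. The symbols MRPL38 and MRPL53 also name proteins of this ribosome. They fit the pattern but had no row in the table, so they are not among the 76 genes.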
